A study of Mus musculus with 2 samples.

Results

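Mir139, Mir744, Mir149, Mir324 and Mir652 are 5 of the 2202 microRNA (miRNA) genes counted in adult mouse hippocampus. They were chosen as genes that stand alone in the genome, have a hairpin found at 1 place only, and reached a mean of 10000 CPM or more over both libraries, where CPM is the count scaled to all reads counted on miRNA genes. Small RNA was sequenced from wild-type C57BL/6 mice (strain B6NCrl) at 6 months of age, in 1 group of 2 libraries that the labels number as biological replicates 1 and 2. The labels describe the tissue as a layer of the hippocampus without naming the layer, and as male although the sex field reads as not collected. They give each library its own biosample but the same donor, so the spread between the libraries may be technical. There is no treated or mutant group, so the comparisons are between members, between the libraries and with the other miRNA genes.

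A miRNA is cut from a hairpin in a longer transcript, first in the nucleus by Drosha and then in the cytoplasm by Dicer. One arm of the resulting duplex is loaded into an Argonaute protein and directs it to messenger RNAs, mainly through the seed, bases 2 to 8 from its 5′ end, which lowers their translation and stability. A miRNA with a single locus and no close relative is the only source of its mature sequence, and many such miRNAs lie in introns and are transcribed with the host gene.

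The mature arms are shown because the counts join both arms of each hairpin, and because the seeds set these 5 miRNAs apart from each other. They are RefSeq sequences on GRCm38.p6, written 5′ to 3′ with the seed in capitals. All 5 hairpins matched the RefSeq table.
mmu-miR-139-5p: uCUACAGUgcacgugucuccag
mmu-miR-139-3p: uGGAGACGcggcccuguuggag
mmu-miR-744-5p: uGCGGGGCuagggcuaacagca
mmu-miR-744-3p: cUGUUGCCacuaaccucaaccu
mmu-miR-149-5p: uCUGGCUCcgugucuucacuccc
mmu-miR-149-3p: gAGGGAGGgacgggggcggugc
mmu-miR-324-5p: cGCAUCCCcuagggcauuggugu
mmu-miR-324-3p: cCACUGCCccaggugcugcu
mmu-miR-652-5p: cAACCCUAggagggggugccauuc
mmu-miR-652-3p: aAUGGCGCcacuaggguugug

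No 2 of these 10 arms shared a seed. For 9 of the 10, no other gene of the RefSeq table had a mature sequence with the same seed, against 68.0% of the 1738 mature sequences in the table. The exception was miR-149-3p, a guanine-rich arm, whose seed AGGGAGG also stands in miR-1943-5p, miR-7016-5p and miR-6967-5p. The genes of these 3 miRNAs were at or near the detection limit as counted here. Mir1943 had 1.41 CPM in replicate 1 and 3.37 CPM in replicate 2, and Mir7016 had 3.06 CPM in replicate 1 against 3.77 CPM in replicate 2. The miR-6967 genes, annotated as Gm27740 and Gm27775, had 0 counts in both libraries, which allows a level of 0.706 CPM at most in replicate 1, and of 0.595 CPM at most in replicate 2, for reads aligned to 1 place.

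The GC content of the mature arms ran between 50% in miR-744-3p and 81.8% in miR-149-3p. Among the 5p arms, those of Mir139, Mir744 and Mir149 begin with uracil. The hairpins differ more in length than the arms do, with 66 bases for Mir149, 68 for Mir139, 89 for Mir324, 98 for Mir652 and 100 for Mir744. Between the arms lie 12 bases in Mir324, 14 in Mir139, 16 in Mir652, 17 in Mir149 and 35 in Mir744. Hairpins of the 4 members that lie in introns follow, with the mature arms in capitals, to show this loop and the flanking bases.
mmu-mir-139, chr7:101475376-101475443, plus strand: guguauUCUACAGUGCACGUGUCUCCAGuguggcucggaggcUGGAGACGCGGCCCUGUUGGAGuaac
mmu-mir-744, chr11:65734733-65734832, minus strand: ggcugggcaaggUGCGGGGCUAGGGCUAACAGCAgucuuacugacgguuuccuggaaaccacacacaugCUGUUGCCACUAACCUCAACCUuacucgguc
mmu-mir-149, chr1:92850378-92850443, plus strand: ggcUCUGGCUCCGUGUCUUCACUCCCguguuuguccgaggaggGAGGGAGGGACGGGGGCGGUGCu
mmu-mir-652, chrX:142739000-142739097, plus strand: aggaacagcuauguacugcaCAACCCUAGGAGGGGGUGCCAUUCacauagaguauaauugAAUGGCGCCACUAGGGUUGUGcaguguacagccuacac

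The predicted minimum free energy of the folded hairpin, a measure of how tightly it pairs, was −49.0 kcal/mol for Mir652, −44.8 for Mir744, −36.9 for Mir324, −36.7 for Mir149 and −35.6 for Mir139. Per base these values were −0.500, −0.448, −0.415, −0.556 and −0.524 kcal/mol in the same order, against a median of −0.439 over the 302 detected miRNA genes, those with at least 10 CPM in each library. Mir149 and Mir139 thus had the lowest energy per base of the 5, and Mir324 was the only member above that median. GC content of the hairpin was 68.2% in Mir149, 58.8% in Mir139, 58.4% in Mir324, 56.0% in Mir744 and 50% in Mir652, against a median of 51.4% over the detected genes.

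All 5 hairpins lie inside a protein-coding gene on the same strand, as did 88 of the 121 detected solitary single-locus genes (72.7%) and 146 of all 302 detected genes (48.3%). Mir139 (ENSMUSG00000065446.1) lies in an intron of all 10 Pde2a transcripts that span it. Pde2a encodes phosphodiesterase 2A, which breaks down cyclic nucleotides. In the transcript Pde2a-202 the next exon starts 5927 bases downstream, and GENCODE M21 also annotates the overlapping gene Gm45837 there. Mir744 (ENSMUSG00000076460.1) lies in an intron of all 5 spanning transcripts of Map2k4, a kinase gene of the JNK pathway. In the transcript Map2k4-201 it stands in intron 3, only 359 bases after the preceding exon and 15129 bases before the next.

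Mir149 (ENSMUSG00000065470.1) lies in intron 1 of Gpc1, which encodes the heparan sulfate proteoglycan glypican-1, and 2903 bases before the next exon of the transcript Gpc1-201. Mir652 (ENSMUSG00000076011.1) lies in intron 2 of Tmem164-201, an intron of 69090 bases, on the X chromosome. Tmem164 encodes a transmembrane protein. Mir324 (ENSMUSG00000065534.1, chromosome 11, 70012043 to 70012131, plus strand) differed from the other 4 members in that it is exonic. It lies in exon 16 of the transcript Dvl2-207, and in both spanning transcripts of Dvl2 the stretch over it is annotated as untranslated. Dvl2 encodes a Dishevelled protein of Wnt signalling. On the other strand the hairpin lies within an intron of Acadvl, a gene of mitochondrial fatty acid oxidation. A fragment of the Dvl2 messenger RNA from this exon would have the same sequence as the hairpin, so the count of Mir324 cannot separate them.

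**Figure D1:**
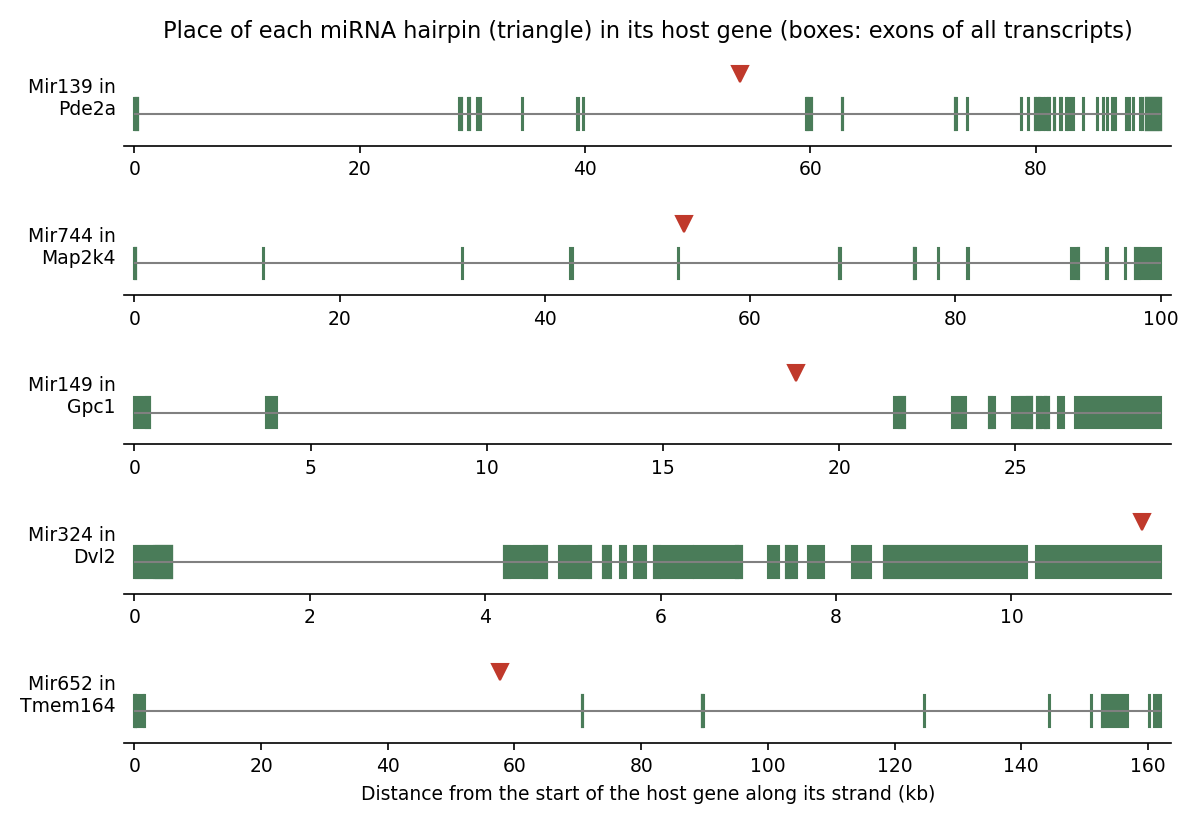
Each row is a host gene drawn 5′ to 3′, with the distance in kb from its annotated start on the horizontal axis; green boxes are exons of all its transcripts and the red triangle marks the miRNA hairpin. Mir139, Mir744, Mir149 and Mir652 stand between exons, Mir744 close after one, and Mir324 stands over the last exon of Dvl2.

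The nearest other annotated miRNA gene on either strand lay 667 kb from Mir744, 406 kb from Mir139, 386 kb from Mir149 and 224 kb from Mir652. Mir324 had the closest neighbour, Gm44349, at 31.2 kb. No hairpin of the 5 shared a stretch of 20 bases with any other annotated hairpin that does not overlap it. Among 141767 GENCODE M21 transcripts, the 10 mature sequences were found only in their own hairpins, except that both arms of Mir324 also stood in Dvl2. Introns were not searched. All 5 members had 0 counts on the opposite strand in both libraries, and their counts without regard to strand equalled their sense counts.

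The rule was checked on the table. With no other miRNA gene within 10 kb and no shared stretch of 20 bases, 7 genes reached a mean of 10000 CPM. They were the 5 members and Mirlet7i and Mirlet7g, which are not members and belong to the let-7 family. Mir652 stood just inside the threshold, at 10049 CPM, and Mir330 just outside it, at 9930.0 CPM. Both had a value on either side of the threshold. Mir652 had 9613 CPM in replicate 1 and 10486 CPM in replicate 2, and Mir330 had 8341 CPM in replicate 1 against 11519 CPM in replicate 2. The next gene inside was Mir324, and the next outside was Mir151 (7335 ± 219 CPM, SD, n = 2).

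The levels are given next as a description, since the members were chosen by them. A read of this size covers a mature arm and not the hairpin, so counts were not divided by hairpin length. How evenly different mature sequences were captured was not measured, so an order of levels is an order of counted reads. The libraries held 4247092 and 5041568 counts on miRNA genes in replicates 1 and 2, and at that depth each member rested on at least 40826 counts per library. No molecular identifiers are named in the labels, so intervals take in counting error and nothing else.

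Mir139 had 665090 counts in replicate 1 and 772873 counts in replicate 2, or 156599 and 153300.1 CPM. It ranked 1 of all genes in both libraries, with a share of counted reads of 15.7% (exact 95% interval 15.6 to 15.7%) and 15.3% (15.3 to 15.4%). miR-139-5p is known mainly as a miRNA that is reduced in many human tumours. Its mean was 154949.5 ± 2333 CPM (SD, n = 2), and the coefficient of variation was 1.51% on the CPM scale.

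Mir744 had 126629 counts in replicate 1 and 218043 counts in replicate 2, or 29815 and 43249 CPM. It ranked 8 in replicate 1 and 6 in replicate 2, and its mean of 36532 ± 9499 CPM had the largest coefficient of variation of the 5, 26.0%. miR-744 is known in human cells to repress the transcript of the growth factor TGFB1.

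Mir149 had 42950 and 71458 counts in replicates 1 and 2, or 10113 CPM in replicate 1 and 14174 CPM in replicate 2, with ranks of 21 and 13. Its mean was 12143 ± 2872 CPM, a coefficient of variation of 23.6%. miR-149 has been studied in human neuroblastoma cells, where it promotes cell death.

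Mir324 had 43216 and 55883 counts in replicates 1 and 2, or 10175 CPM in replicate 1 and 11084 CPM in replicate 2, with ranks of 20 and 18. Its mean was 10629.9 ± 643 CPM. In mouse hippocampus miR-324-5p is known to repress the potassium channel subunit Kv4.2, and the arm used from this hairpin is known in mammals to depend on uridylation, which per-hairpin counts cannot show.

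Mir652 had 40826 and 52864 counts in replicates 1 and 2, or 9613 CPM in replicate 1 and 10486 CPM in replicate 2, with ranks of 22 and 19. Its mean was 10049 ± 617 CPM. miR-652 has been studied in the mouse heart, where its inhibition eased the response to pressure overload. Mir324 and Mir652 thus varied alike, with coefficients of variation of 6.05% and 6.14%.

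The 5 members fell into 3 levels. The level of Mir139 was 5.25 times that of Mir744 in replicate 1 and 3.54 times in replicate 2, and the level of Mir744 was 2.95 and 3.05 times that of Mir149 in the same order, with no overlap between the libraries' values. Mir149, Mir324 and Mir652 were neighbours whose values overlapped. Mir149 was 0.994 times Mir324 in replicate 1 and 1.28 times Mir324 in replicate 2, so their order turned between the libraries. Mir324 was 1.06 times Mir652 in both libraries, but the range of each covered values of the other.

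**Figure D2:**
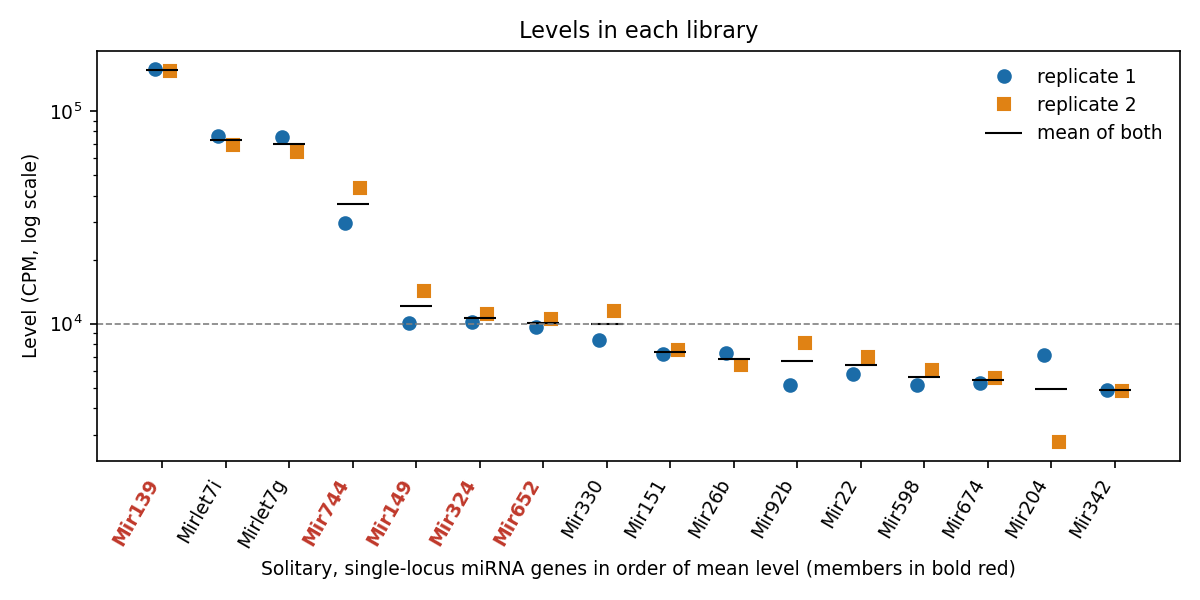
The vertical axis gives the level in CPM on a log scale for the 16 solitary single-locus genes with the highest mean, with replicate 1 as circles, replicate 2 as squares and the mean of both as a bar; the dashed line is the 10000 CPM of the rule. Mir139 is highest, with 156599 CPM in replicate 1 against 153300.1 CPM in replicate 2, Mir149, Mir324 and Mir652 lie close to the line, and Mir330 lies below it in replicate 1 and above it in replicate 2.

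Together the members held 21.6% (exact 95% interval 21.59 to 21.67%) of the replicate 1 counts and 23.2% (23.19 to 23.27%) of those of replicate 2, a mean of 22.4% ± 1.13 (SD, n = 2). Mir139 made up 72.4% of that sum in replicate 1 and 66.0% in replicate 2. The other 4 held 5.97% of counted reads in replicate 1 and 7.90% in replicate 2. Among all solitary single-locus genes, the 5 members held 44.9% of the counts in replicate 1 and 47.6% in replicate 2.

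The gene counts leave out reads with several alignments. There were 4860617 such reads in replicate 1 and 5764832 in replicate 2, more than all counted reads. If these reads are all added to the total, the share of Mir139 becomes 7.30% in replicate 1 and 7.15% in replicate 2, and that of the 5 members 10.1% and 10.8%. The rank of Mir139 therefore holds among genes as counted here. Mir124a-1, a locus of the neuronal miRNA miR-124, which has several loci, had 6 counts in replicate 1 and 8 in replicate 2. How many of the reads with several alignments belong to any given miRNA was not measured.

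The tissue was checked on marker miRNAs. Of 14 neuron-enriched genes, 9 were detected, and the list had sums of 48995 CPM in replicate 1 against 31357 CPM in replicate 2. Those not detected were Mir124a-1, Mir124a-2, Mir124a-3, Mir9-2 and Mir9-3, genes of miRNAs with several loci. Reads with several alignments are left out of the counts, so the values do not measure such miRNAs in full. Mir132 alone had 32072 CPM in replicate 1 against 14605 CPM in replicate 2, and without it the sums were 16923 CPM in replicate 1 against 16752 CPM in replicate 2. Of the 13 neuron-enriched genes tested, 4 passed as higher and 5 as lower in replicate 1 by the exact test described below. Of all 522 genes tested, 51.0% passed, and of the 93 at a mean of 1000 CPM or more 97.8% did. Such counts of passing genes therefore say little. Of the 5 microglia and leukocyte genes, 3 were detected, and the sums of all 5 were 2926 and 2627 CPM in the same order. Mir150 alone had 2138 CPM in replicate 1 and 1949 CPM in replicate 2, whereas Mir142 and Mir223 were not detected. None of the 2 erythroid genes was detected. For choroid plexus and ependyma, 6 of 7 genes were detected and the sum was 11419 CPM in replicate 1 against 3470 CPM in replicate 2. The leading gene was Mir204, with 7102 CPM in replicate 1 against 2780.3 CPM in replicate 2. Among the 7 genes tested there, 5 passed as higher and 1 as lower in replicate 1. The oligodendrocyte list had sums of 5817 and 8786 CPM in the same order. In that list Mir219a-2 had 3630 CPM in replicate 1 against 6444 CPM in replicate 2, while Mir338 had 2175 CPM against 2333 CPM. The 3 vascular genes differed in direction, with log2 ratios of −0.30 for Mir126a, 0.67 for Mir143 and 0.58 for Mir145a. The libraries thus differed in marker genes of several lists, Mir132 of the neuron-enriched list among them. The part of this in the members' values was not tested.

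The levels of the members were then compared between the libraries. The rule used the mean of these same libraries and not their difference. Mir652 reached 10000 CPM only in replicate 2, so its lower value in replicate 1 is not independent of the rule. Ratios are replicate 1 over replicate 2, tested with an exact binomial test, two-sided, on each of the 522 genes with at least 10 counts, with Benjamini-Hochberg adjustment. Such a test sets the reads of 2 libraries side by side, not conditions, and allows for counting error only. All 5 members passed at 0.05, Mir744, Mir149, Mir324 and Mir652 as lower and Mir139 as higher in replicate 1. Of all genes tested, 51.0% passed, 28.2% as lower and 22.8% as higher. Among the 93 tested genes at a mean of 1000 CPM or more, 97.8% passed (49.5% as lower and 48.4% as higher), so passing says little at this depth and the size of the difference matters more.

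Mir744, with 29815 CPM in replicate 1 against 43249 CPM in replicate 2, differed the most of the members. The log2 ratio was −0.54 (exact 95% interval −0.55 to −0.53). Mir149 followed with a log2 ratio of −0.49 (−0.50 to −0.47). Both adjusted p-values by the exact test were too small for double precision, and both genes were lower in replicate 1 by about the same factor, 1.45-fold for Mir744 and 1.40-fold for Mir149.

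Mir652 and Mir324 had smaller differences of like size. The log2 ratio was −0.13 (−0.14 to −0.11, exact adjusted p = 4.57e-39) for Mir652 and −0.12 (−0.14 to −0.11, exact adjusted p = 5.19e-40) for Mir324, a difference of 1.09-fold in each case. Mir139 had a log2 ratio of 0.03 (0.026 to 0.035, exact adjusted p = 2.47e-36), but its direction depended on the scaling. It was −0.03 with all reads as the library size, 0.001 with the members left out of the library size (adjusted p = 0.785), 0.10 with TMM and 0.12 with DESeq2 size factors. The other 4 members were lower in replicate 1 under every scaling tried.

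The sizes were set against those of all detected genes. With scaling to miRNA counts, none of the 5 was over 1.5-fold apart, against 30.1% of the 302 detected genes and 25.8% of the 93 genes at 1000 CPM or more. With all reads as the library size Mir744 was 1.51-fold apart. The median size of the log2 ratio was 0.36 over the detected genes. At this scaling, 3.97% of detected genes had a smaller ratio in size than Mir139, 20.5% a smaller one than Mir324 and 21.5% a smaller one than Mir652, while 62.9% were below Mir149 and 66.6% below Mir744. The place of Mir139 as the smallest of the 5 also depended on the scaling. With TMM the log2 ratio was −0.053 for Mir324 and −0.055 for Mir652, and with DESeq2 size factors it was −0.030 and −0.032, smaller in size than that of Mir139 under both. Over all genes tested, 119 passed as higher and 147 as lower in replicate 1, and with DESeq2 size factors 143 passed as higher and 117 as lower.

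**Figure D3:**
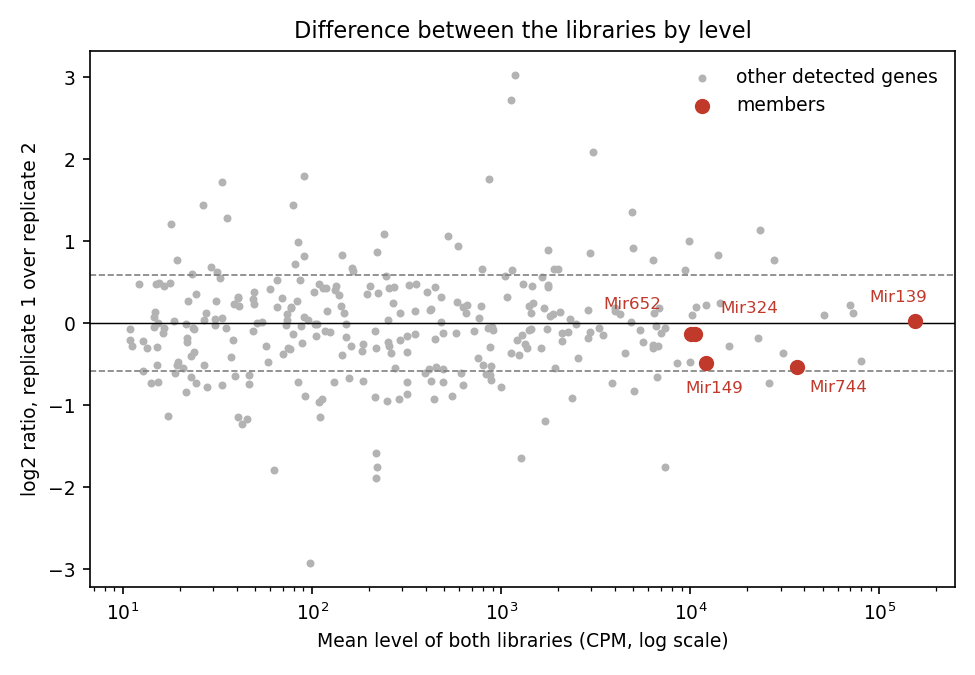
Each point is a detected gene, with the mean level in CPM on a log scale on the horizontal axis and the log2 ratio of replicate 1 over replicate 2 on the vertical axis; dashed lines mark 1.5-fold. The 5 members, in red, lie at the high end of the levels and between the dashed lines, with Mir139 nearest to 0 at this scaling and Mir744 nearest to the lower line.

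The difference between the libraries moved with GC content, a property examined after the values were seen. Detected genes were split into 5 groups by the GC content of the hairpin. In the group with the highest GC content (58.8 to 79.1%, 61 genes), the median log2 ratio was −0.37 and 47 genes were lower in replicate 1. In the group with the lowest (32.4 to 42.9%, 61 genes) it was 0.15, and 25 genes were lower. The correlation across the 302 detected genes was −0.31 (Spearman) and −0.29 (Pearson), given as a description of genes that share 2 libraries. Mir149, with 68.2% GC, lay in the highest group, and its log2 ratio of −0.49 stood beside a median of −0.37 there. Mir744 and Mir324 lay in the next lower group, where the median was −0.05, and Mir652 lay in the middle one, where it was −0.04. Mir139, with 58.8% GC, had the same GC content as the boundary between the 2 highest groups, so its group was set by a tie. The libraries also differ in the version of the trimming protocol that the labels name. The part of GC content and of trimming in these ratios was not tested.

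**Figure D4:**
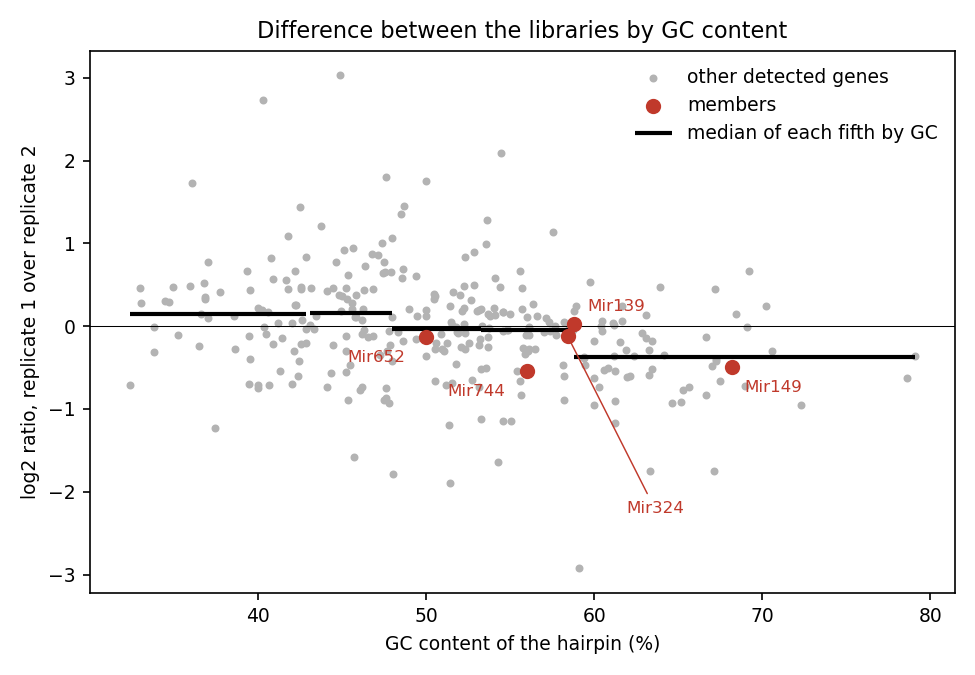
Each point is a detected gene, with the GC content of its hairpin in percent on the horizontal axis and the log2 ratio of replicate 1 over replicate 2 on the vertical axis; black bars are the medians of 5 equal groups of genes by GC content. The bars stand at 0.15 in the lowest group and −0.37 in the highest, and of the members in red Mir744 lies farthest from the bar of its group.

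The genes closest to each member in their levels over both libraries were named by the distance between log2 CPM values, over 2 libraries only. A like ratio between the libraries is partly built into this distance, so a shared direction is not a separate result. Mir324 and Mir652 were each other's nearest gene, 0.115 apart, and the second nearest of both was Mir23a (10571 CPM in replicate 1 and 9819 CPM in replicate 2), at 0.183 and 0.167. Mir23a went the other way from both, with a log2 ratio of 0.11. The genes nearest to Mir149 were Mir324, at 0.355, and Mir330, at 0.408. Mir330 also shared its direction, with a log2 ratio of −0.47. Mir744 was nearest to Mirlet7e (26924 CPM in replicate 1 and 34627 CPM in replicate 2, distance 0.353) and Mir125a (19486 CPM in replicate 1 and 32303 CPM in replicate 2, distance 0.744), both also lower in replicate 1. Mir139 had no close neighbour: Mirlet7b, the next gene in rank, stood 1.41 away, with 67728 CPM in replicate 1 and 92761 CPM in replicate 2, and Mirlet7i stood 1.55 away.

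In rank over all genes, Mir744 stood between Mir127 (50774 ± 2462 CPM) and Mirlet7e (30775 ± 5446 CPM). Mir149 stood between Mir99a (13937 ± 5529.6 CPM) and Mir191 (12129 ± 1297 CPM), and its mean differed from that of each by less than its own SD. Mir324 stood between Mir30d (10769.7 ± 1043 CPM) and Mir23a (10195 ± 532 CPM), and Mir652 between Mir23a and Mir330, with differences that were also within the SD. The ranks of the 3 lower members are therefore not resolved from those of their neighbours, whereas Mir139 was separate from all genes in both libraries.

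Of 36 other miRNA genes listed as solitary, 35 were detected. Their sum of 62733 CPM in replicate 1 and 69412 CPM in replicate 2 was less than the level of Mir139 alone. By the exact test 14 of the 36 were lower and 16 higher in replicate 1, and the median log2 ratio of the 35 detected was −0.005, beside −0.05 over all 302 detected genes. The 4 with the highest mean were Mir330 (9930.0 ± 2248 CPM), Mir328 (8481 ± 1981 CPM), Mir22 (6374 ± 814 CPM) and Mir598 (5606 ± 615 CPM). All 4 passed as lower in replicate 1, with log2 ratios of −0.47 for Mir330, −0.48 for Mir328, −0.26 for Mir22 and −0.22 for Mir598. On the computed rule, Mir328 is not solitary, since a predicted miRNA gene is annotated close to it. Mir378a, Mir150, Mir708, Mir28a, Mir873a and Mir190a of the list also fall outside the solitary single-locus rule. All of these remain in the sums and counts of the list.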

How the data were processed

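Small RNA reads of the 2 hippocampus libraries were available as deposited counts per miRNA gene, whole numbers that the authors did not normalise. The build was mm10 with GENCODE M21, per the file headers; the aligner and the counter were not given in the sources used here. Either table holds 2202 gene rows and 4 summary rows, which held 61.8% of reads in replicate 1 and 60.1% in replicate 2 and entered neither library sizes nor tests. Sense-strand counts were used, a choice taken from the values. CPM was computed over the gene rows. The libraries held 11106392 and 12627039 reads in replicates 1 and 2. Log2 ratios have 0.5 counts added to each library. With 1 group of 2 libraries the quasi-likelihood test of edgeR could not be fitted, and an exact two-sided binomial test was used and tested on simulated data. The simulated counts held counting error only, so that check does not cover further variation between libraries. Hairpins were folded with RNAfold 2.7.2; positions and hairpins came from GENCODE M21, mature sequences from RefSeq (GRCm38.p6). Python 3.11.15, scipy 1.17.1, statsmodels 0.14.6, R 4.3.3, edgeR 4.0.16 (TMM) and DESeq2 1.42.0 (size factors) were used. The members and lists were chosen with earlier results of these data known. Besides the members, the genes named are the neighbours in rank, the 2 genes nearest in level, genes sharing a seed, the genes nearest to the threshold and the highest of each list; Mir124a-1 was chosen after its values were seen.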

Additional observations from a re-analysis of the deposited data

How the results depend on the processing

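No paired analysis was possible because the libraries form 1 group. The summed level of the 5 members was 224304 CPM, 240786 CPM with counts taken without regard to strand and 87733 CPM with all reads as the library size, where the larger total lowers every level; without one replicate it ranged over 216315 to 232293 CPM. All 5 members passed the exact test under every alternative except the library size without the members, where 4 did. The number of genes passing ranged over 255 to 275 around 266, but not always of the 522 genes tested in the main setting. It was 255 of 496 with counts taken without regard to strand, and 267 of 799 with every gene of at least 1 count. The log2 ratio of Mir139 reversed to −0.032 with all reads as the library size. The genes at 10000 CPM or more that count as solitary numbered 7 with a distance of 10 kb, 11 with 1 kb and 5 with 50 kb, where Mir324 is lost; without one replicate they numbered 6 to 8, and Mir652 is lost in replicate 1 alone. Adding 5 counts to each library, or testing every gene with at least 1 count, left the members' directions as they were. Depth does not limit the members, whereas 2 libraries that the labels assign to the same donor limit what their spread can show.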
